A study of Mus musculus with 4 samples.

Results

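The Zfp genes are mouse genes named for a zinc finger protein by the symbol Zfp and a number. They were measured in splenic dendritic cells (DC) of the Esam population, with and without Runx3. A gene was taken when 1 of its probe sets carried its symbol and no other and reached a log2 value of 6.5 on at least 1 of the 4 arrays, and its brightest probe set stood for it. Zfp36, Zfp36l1 and Zfp36l2 were left out, since they code for RNA-binding proteins with another kind of finger. Their namesake Zfp36l3 was not left out by this rule, but it lay under the limit on every array. Of 344 Zfp genes with such a probe set, 248 reached the limit and 96 lay under it on every array, and the 248 were set against 9646 other genes chosen in the same way, out of 9894 in all. A further 40 probe sets carried a Zfp symbol beside other symbols and were not named. The genotypes played no part in the choice.

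A classical zinc finger is a short fold held by a zinc ion through cysteines and histidines, and a row of such fingers can read a stretch of DNA. Many Zfp genes lie in tandem clusters that arose by duplication, and many of their proteins carry a KRAB domain, which recruits the corepressor Trim28 and, through it, the histone methyltransferase Setdb1. KRAB proteins are known for silencing retroelements and for keeping imprints. Other members of the family act at promoters, in RNA handling or in lymphoid development.

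The study asked how the transcription factor Runx3 shapes splenic DC. RNA came from 4 mice aged 6 weeks, 1 array each. In each of 2 litters a wt mouse, labelled DCRunx3 +/+, was set beside a cKO mouse, labelled DCRunx3 -/-. Per the study's methods and legends, the cKO mice were Runx3 fl/fl with CD11c-Cre, which deletes floxed alleles in cells that switch on CD11c and so also outside the sorted population, and the wt mice lacked that deletion. The cells were sorted from spleen on CD11c, MHC class II, Esam, CD4 and CD8, and no treatment was given in the labels. Each group held 2 mice, and the p-values measure the spread between these mice.

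Several properties of the arrays touch every comparison. The gene-level probe set of Runx3 read 11.37 and 11.51 in wt and 11.47 and 11.45 in cKO, so it did not separate the genotypes and does not check the labels. All 4 mice were labelled male, but Xist, the RNA that coats the inactive X chromosome, read 12.75 and 12.78 in the 2 arrays of litter 1 and 5.15 and 5.19 in those of litter 2, while the Y-linked Kdm5d read 5.26 and 5.19 against 9.84 and 9.89. These values read as female in litter 1 and as male in litter 2, against the label. Litter, with 1 wt and 1 cKO array in each, therefore cannot be told apart from this split by sex. Values are given by litter below. Markers of other cells moved with genotype. The mean of the 4 cDC1 markers lay at 9.22 to 9.42 in wt and 10.55 to 10.63 in cKO, with 4 of 4 higher. The 5 macrophage markers lay at 9.62 to 9.99 and 10.38 to 10.48, with 5 of 5 higher. The 4 plasmacytoid DC markers lay at 7.61 to 7.87 and 8.51 to 8.76, with 3 of 4 higher. Most of that gap came from Cox6a2, with a difference of 2.68, beside Siglech at 0.61, Tcf4 at 0.42 and Bst2 at -0.12. The measured B cell markers lay at 8.08 to 8.48 and 8.58 to 8.75, with 4 of 4 higher. Markers of T cells, NK cells, neutrophils and erythroid cells lay under 6.5 in every case measured, whereas classical DC markers lay at 12.13 to 12.18 in wt and 12.05 to 12.16 in cKO, and markers of the Esam population at 10.98 to 11.06 and 11.28 to 11.30. The part of other cells in the Zfp values was not tested, and in bulk RNA fewer cells of a type and less RNA per cell cannot be told apart.

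Because the clearest pattern among the Zfp genes lay in a gene cluster, its promoters are shown first. The sequences below are RefSeq promoters of build GRCm38.p6, from 250 bases before to 50 bases after the start, written 5′ to 3′ on the gene's own strand. Zfp759, Zfp874a and Zfp874b belong to a run of neighbours on chromosome 13, Zfp931 had the largest difference of the family, and Zfp512 and Zfp263 were among the genes lower in cKO. Capitals mark TGTGGT, the core that Runx factors bind, read on either strand (ACCACA on the other), and GGGAAATGTAGT, read on either strand (ACTACATTTCCC on the other), the word of 12 letters found in the most promoters of the run. That search was set up after the sequences had been read, and the marked words do not overlap in the sequences shown.
Zfp759 (chr13:67127978-67128277, + strand): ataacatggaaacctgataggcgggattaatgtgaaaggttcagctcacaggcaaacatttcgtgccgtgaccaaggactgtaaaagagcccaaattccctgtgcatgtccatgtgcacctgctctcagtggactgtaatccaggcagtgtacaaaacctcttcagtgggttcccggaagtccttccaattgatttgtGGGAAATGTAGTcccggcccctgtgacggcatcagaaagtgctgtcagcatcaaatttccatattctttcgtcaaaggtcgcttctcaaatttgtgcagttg
Zfp874a (chr13:67451575-67451874, - strand): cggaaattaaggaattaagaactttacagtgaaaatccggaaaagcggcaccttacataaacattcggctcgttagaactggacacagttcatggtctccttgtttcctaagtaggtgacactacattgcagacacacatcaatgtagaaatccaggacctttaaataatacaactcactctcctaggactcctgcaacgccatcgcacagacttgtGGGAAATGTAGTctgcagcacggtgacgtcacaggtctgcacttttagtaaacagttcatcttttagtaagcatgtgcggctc
Zfp874b (chr13:67484204-67484503, - strand): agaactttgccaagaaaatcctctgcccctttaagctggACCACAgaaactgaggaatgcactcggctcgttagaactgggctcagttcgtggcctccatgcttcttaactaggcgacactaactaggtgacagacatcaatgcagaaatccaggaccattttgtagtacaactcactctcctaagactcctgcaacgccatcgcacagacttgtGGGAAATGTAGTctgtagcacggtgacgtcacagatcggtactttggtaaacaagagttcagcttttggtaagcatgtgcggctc
Zfp931 (chr2:178078376-178078675, - strand): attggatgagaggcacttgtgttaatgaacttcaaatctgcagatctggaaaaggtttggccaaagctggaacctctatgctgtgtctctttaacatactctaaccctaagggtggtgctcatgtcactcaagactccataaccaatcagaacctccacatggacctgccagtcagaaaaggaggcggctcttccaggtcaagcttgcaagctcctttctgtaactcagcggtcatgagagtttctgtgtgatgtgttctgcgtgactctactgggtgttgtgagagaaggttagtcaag
Zfp512 (chr5:31452186-31452485, + strand): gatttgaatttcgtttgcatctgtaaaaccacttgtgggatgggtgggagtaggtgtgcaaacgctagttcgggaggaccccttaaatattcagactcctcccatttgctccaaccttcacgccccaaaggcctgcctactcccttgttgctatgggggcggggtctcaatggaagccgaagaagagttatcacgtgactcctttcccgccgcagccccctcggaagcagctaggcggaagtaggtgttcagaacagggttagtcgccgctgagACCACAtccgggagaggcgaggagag
Zfp263 (chr16:3743849-3744148, + strand): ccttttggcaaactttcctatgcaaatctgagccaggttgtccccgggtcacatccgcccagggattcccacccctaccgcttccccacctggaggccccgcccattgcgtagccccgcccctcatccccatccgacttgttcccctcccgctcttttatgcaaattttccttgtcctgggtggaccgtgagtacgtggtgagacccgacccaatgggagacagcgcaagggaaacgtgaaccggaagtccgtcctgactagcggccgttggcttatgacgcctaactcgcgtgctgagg

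Zfp genes differed little between the genotypes. A difference is the cKO mean minus the wt mean in log2 units, and its median over the 248 genes was 0.01, with the middle of the distribution between -0.09 and 0.08 and a full range of -0.44 to 0.78. Over the other genes the median was -0.03, the quartiles were -0.12 and 0.07, and the range ran from -1.97 to 3.55. The median size of a difference, regardless of sign, was 0.083 for Zfp genes and 0.101 for the rest. For 246 of 248 Zfp genes the difference lay within 0.5 log2 units of 0, as it did for 9163 of 9646 other genes. The 95% confidence interval of the Zfp genes reached a median of 0.287 to either side of the estimate.

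No Zfp gene passed an adjusted p of 0.05 in limma (0%, as for the other genes at 0%), and the smallest was 0.406. With the litter as a block the smallest was 0.338, again with 0 past the threshold. With 1 probe set per gene in the limma fit, 42 other genes (0.435%) passed and 0 Zfp genes did, with a smallest Zfp value of 0.197. At an unadjusted limma p under 0.05, 5 Zfp genes (2.02%) were lower in cKO and 7 (2.82%) were higher, against 5% and 5.43% of other genes. A fold of 1.5 or more in either direction was reached by 1 Zfp gene (0.403%), Zfp931, against 3.58% of other genes. None passed the study's joint thresholds of that fold and an unadjusted p of 0.05 in its one-way test, against 1.9% of other genes. On that p alone 11 Zfp genes (4.44%) were under 0.05, against 10.7% of other genes.

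Counted by sign, 118 Zfp genes (47.6%) were lower in cKO and 130 (52.4%) were higher, whereas among other genes 57.8% were lower and 42.2% were higher. Both cKO arrays lay below both wt arrays for 49 Zfp genes (19.8%), against 28.5% of other genes. Both lay above for 38 (15.3%), against 17.2%. With array medians set equal, 41 of the 248 lay below and 45 above, against 26.4% and 19.7% of other genes. After quantile normalization 42 lay below and 48 above, against 25.4% and 19.8%. With array medians set equal, 41.9% to 44.0% of Zfp genes were lower across that and quantile scaling, against 54.5% to 55.0% of others, so the order of the 2 shares held under both scalings. The shares came close to each other without the limit of 6.5, at 46.5% of Zfp genes and 46.8% of others, and their order turned without the cKO array of litter 2, at 59.7% and 59.5%.

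**Figure D1:**
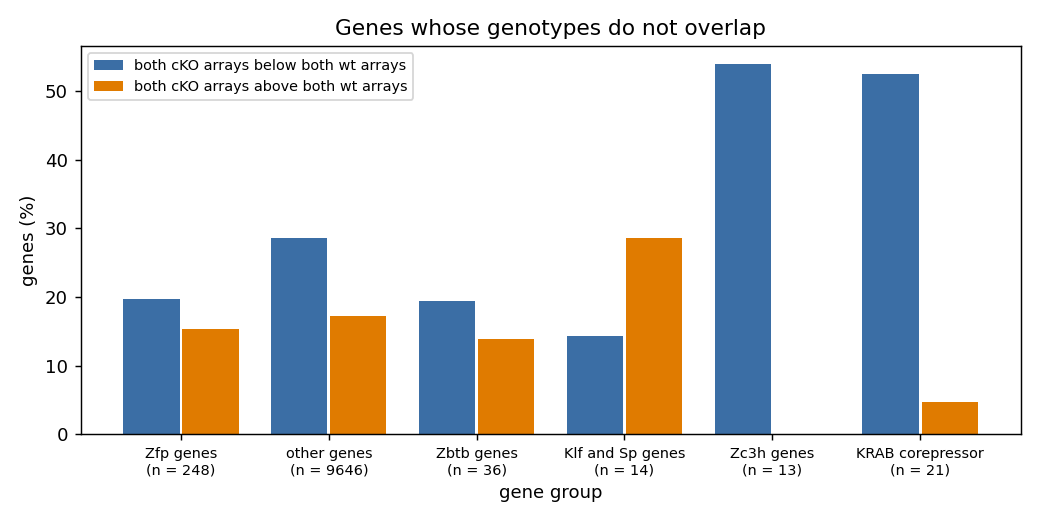
Percentage of genes (y axis) in each gene group (x axis, with the number of genes) whose 2 cKO arrays lay both below (blue) or both above (orange) the 2 wt arrays. Zfp genes were at 19.8% and 15.3%, other genes at 28.5% and 17.2%, and the KRAB corepressor list was mostly on the lower side, with 11 of 21 genes below and 1 above.

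The gap between Zfp and other genes in the share lower by sign appeared above the lowest signals. Among genes with a mean under 7.5, 50.8% of 61 Zfp genes and 51.9% of others were lower by sign. Between 7.5 and 9 the shares were 47.6% of 103 Zfp genes and 60.6% of others, and at 9 or more they were 45.2% of 84 and 58.0%. The share with both cKO arrays above both wt arrays went otherwise. Under 7.5 it was 6.56% of Zfp genes and 23.8% of others. Between 7.5 and 9 it was 20.4% and 16.7%, and at 9 or more 15.5% and 15.6%. Both cKO arrays lay below both wt arrays in 19.7% and 23.4% under 7.5, 19.4% and 30.5% between 7.5 and 9, and 20.2% and 29.0% at 9 or more. By litter, 159 Zfp genes (64.1%) were lower in litter 1, beside 67.6% of others, and 100 (40.3%) were lower in litter 2, beside 48.1%. The litters gave the same sign for 74 genes on the lower side and 63 on the higher side, and opposite signs for 111.

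Of the genes higher in cKO, Zfp931 had the largest difference and is not assigned a role here. It read 7.42 and 6.93 in wt and 7.86 and 8.04 in cKO, in the order of the litters. The cKO arrays stood above both wt arrays, with most of the gap in litter 2. The difference was 0.78 ± 0.196 (SE, n = 2 per group), or 1.71-fold, with a limma adjusted p of 0.406.

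Zfp608 and its relative Zfp609 are regulators of the recombinase genes in thymocytes. Zfp608 read 8.26 and 8.45 in wt and 8.74 and 8.89 in cKO, a difference of 0.46 ± 0.118 (limma adjusted p = 0.414). Zfp609 read 8.65 and 8.69 in wt and 8.82 and 8.90 in cKO, a difference of 0.19 ± 0.087 (limma adjusted p = 0.602). In both genes both litters lay on the higher side, by 0.47 and 0.44 for Zfp608 and by 0.18 and 0.21 for Zfp609.

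Zfp358 read 8.29 in both wt arrays and 8.57 and 8.73 in cKO, a difference of 0.37 ± 0.097 (limma adjusted p = 0.424). Zfp467, known for steering stromal cells between the fat and bone fates, read 7.38 and 7.64 in wt and 7.78 and 7.95 in cKO, a difference of 0.36. The remaining higher genes of the ranked 10 were Zfp874a and Zfp759 (with the chromosome 13 run below), Zfp438 at 0.29, Zfp605 at 0.27 and Zfp942 at 0.22. In all 10 both cKO arrays lay above both wt arrays, which a ranking by p favours and which therefore adds nothing to it.

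On the lower side, Zfp263 codes for a repressor with SCAN and KRAB domains. It read 9.96 and 10.15 in wt and 9.60 and 9.71 in cKO, a difference of -0.41 ± 0.110 (limma adjusted p = 0.433). Both litters lay on the lower side, by -0.36 and -0.45. Zfp939 read 7.57 and 7.67 in wt and 7.24 and 7.31 in cKO, a difference of -0.34 ± 0.091 (limma adjusted p = 0.419).

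Zfp831 read 9.76 and 9.68 in wt and 9.43 in both cKO arrays, a difference of -0.29 ± 0.086 (limma adjusted p = 0.462). Zfp57, which keeps the methylation of imprinted regions, lay near the limit, at 6.61 and 6.72 in wt and 6.20 and 6.45 in cKO, a difference of -0.34. The genotypes did not overlap in either. Zfp512 stood at -0.27, Zfp382 at -0.26, Zfp770 at -0.21, Zfp202 (a repressor of lipid transport genes) at -0.20, Zfp787 at -0.19 and Zfp407 at -0.19, where a dimmer probe set of Zfp407 gave 0.02.

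**Figure D2:**
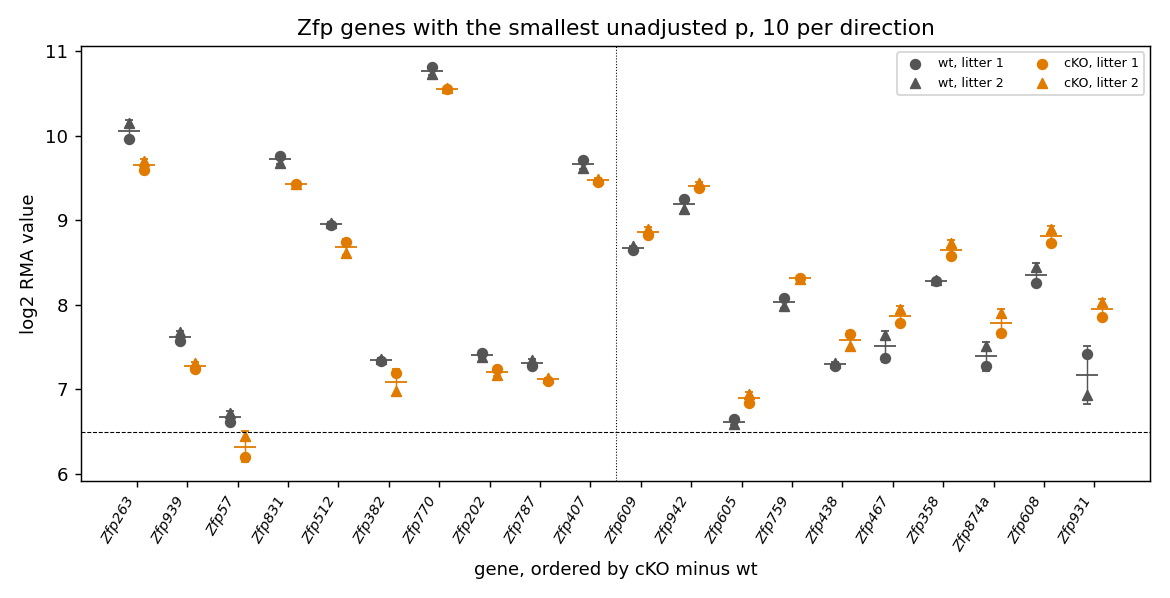
Log2 RMA value (y axis) of the 10 Zfp genes per direction with the smallest unadjusted limma p (x axis), on each wt (grey) and cKO (orange) array of litter 1 (circles) and litter 2 (triangles); bars mark the mean and SD of 2 arrays and the dashed line the limit of 6.5. The genotypes did not overlap in any of the 20, which a ranking by p favours, and Zfp931 had the widest spread within wt, from 6.93 to 7.42.

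The best known DC gene of the family, Zfp366 (DC-SCRIPT, a regulator of classical DC), was chosen after its values were seen. It read 11.43 and 11.63 in wt and 11.30 and 11.38 in cKO, a difference of -0.19 ± 0.109 (limma adjusted p = 0.703). Its genotypes did not overlap, but the gap between the 2 wt arrays was as wide as the difference.

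Genes listed for roles in lymphoid and haematopoietic cells were all on the higher side, 5 of the 5 measured out of 9 listed. That count depends on which genes were listed: the DC gene Zfp366, at -0.19, was not on the list. By sign, 52.4% of all Zfp genes and 42.2% of other genes were higher. They were Zfp608, Zfp467 and Zfp609 above, and Zfp521 and Zfp318. Zfp521, which acts in haematopoietic progenitors and opposes the B cell factor Ebf1, read 8.15 and 7.62 in wt and 8.41 and 8.02 in cKO, a difference of 0.33 ± 0.244. Its genotypes overlapped because litter 2 was lower than litter 1 in both, and its adjusted p was 0.766 in limma and 0.427 with the litter block. Zfp318, needed for the IgD splice form in B cells, read 8.86 and 8.70 in wt and 8.89 and 8.90 in cKO, a difference of 0.11. B cell markers were higher in cKO beside these values, as given above.

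The retroelement and imprint group was spread around 0, with 4 of 6 measured members lower by sign, beside 47.6% of all Zfp genes and 57.8% of other genes. Zfp809, which silences murine leukaemia virus elements, read 11.19 and 10.93 in wt and 11.08 and 11.15 in cKO, a difference of 0.05. Zfp445, an imprint keeper, read 10.39 and 10.36 in wt and 10.33 and 10.36 in cKO, a difference of -0.03. Zfp568, a repressor of a placental Igf2 transcript, stood at -0.10, so Zfp57 was the one member of this group at an unadjusted limma p under 0.05.

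Partners of corepressor complexes were lower by sign in 5 of 8 measured members, beside 47.6% of all Zfp genes and 57.8% of other genes. None of these partners had an unadjusted limma p under 0.05. Zfp532, which joins Zfp592 and Zfp687 in a complex with Zmynd8, had the lowest difference of the family at -0.44, but this rested on 1 array: it read 5.64 and 6.52 in wt and 5.62 and 5.67 in cKO. It entered through the wt array of litter 2, just inside the limit, and Zfp213 entered through the wt array of litter 1, with a highest value of 6.55. Zfp12 and Zfp78, at highest values of 6.47 and 6.43, fell just outside. Zfp687 stood at -0.08, Zfp516 at -0.11 and the SUMO ligase Zfp451 at -0.09.

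Genes for RNA and ribosome functions were lower by sign in 7 of 10, beside 47.6% of all Zfp genes and 57.8% of other genes. Zfp385a read 10.30 and 10.27 in wt and 10.15 and 10.07 in cKO, a difference of -0.17 ± 0.086 (limma adjusted p = 0.645). Zfp593 and Zfp598, which serve the large ribosomal subunit and the sensing of stalled ribosomes, stood at -0.15 and -0.12, and the RNA-binding Zfp106 at 0.09. Factors of promoters and enhancers were lower by sign in 6 of 9, beside the same shares. Apart from Zfp263 none of these factors reached an unadjusted limma p under 0.05: Zfp219 stood at 0.13, Zfp335 at -0.07 and Zfp148 at 0.05.

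The Zfp genes were then placed in RefSeq order along the chromosomes. With at most 5 protein-coding genes between neighbours and at least 5 members, 9 runs held 80 of the 248 genes. The run on chromosome 13 from Zfp708 to Zfp273, chosen after its values were seen, had 17 members, of which 16 were higher in cKO by sign. The exception, Zfp87, was at -0.00. Both cKO arrays lay above both wt arrays in 9 of the 17 and below in 0, and the median difference was 0.12, with a range of -0.00 to 0.54. In the family as a whole 15.3% lay above in this way, and 17.2% of other genes did.

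Within this run Zfp759 read 8.08 and 7.98 in wt and 8.32 and 8.31 in cKO, a difference of 0.28 ± 0.087 (limma adjusted p = 0.474). Zfp874a read 7.27 and 7.51 in wt and 7.67 and 7.90 in cKO, a difference of 0.39 ± 0.142 (limma adjusted p = 0.524), and its neighbour Zfp874b read 6.71 and 7.17 in wt and 7.08 and 7.89 in cKO, a difference of 0.54 ± 0.331 (limma adjusted p = 0.721, and 0.378 with the litter block). The genotypes stood apart in the first pair, and in Zfp874b the cKO array of litter 1 fell below the wt array of litter 2. Zfp58 stood at 0.31, Zfp729b at 0.25 and Zfp458 at 0.21, while Zfp708, Zfp455 and Zfp748 stood at 0.03. A gene of another symbol inside the run, Rsl1, is a KRAB repressor of male-typical liver genes, and it read 10.09 and 9.61 in wt and 10.12 and 10.32 in cKO, a difference of 0.37.

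The run differed by litter. In litter 1 its median difference was 0.05, with 12 of 17 higher, and in litter 2 it was 0.29, with 16 of 17 higher. Without the cKO array of litter 2 the median difference of the run was 0.06, without the wt array of litter 1 it was 0.21, and without the cKO array of litter 1 it was 0.19. Over these genes the median of litter 2 minus litter 1 was -0.10 in wt and 0.10 in cKO. The Xist and Kdm5d values differ between the same litters, and their part in this was not tested. Members of a duplicated cluster can share probe sequence, and whether these probe sets do was not tested. Of the 7 Zfp genes higher at an unadjusted limma p under 0.05, 2 were in the run.

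**Figure D3:**
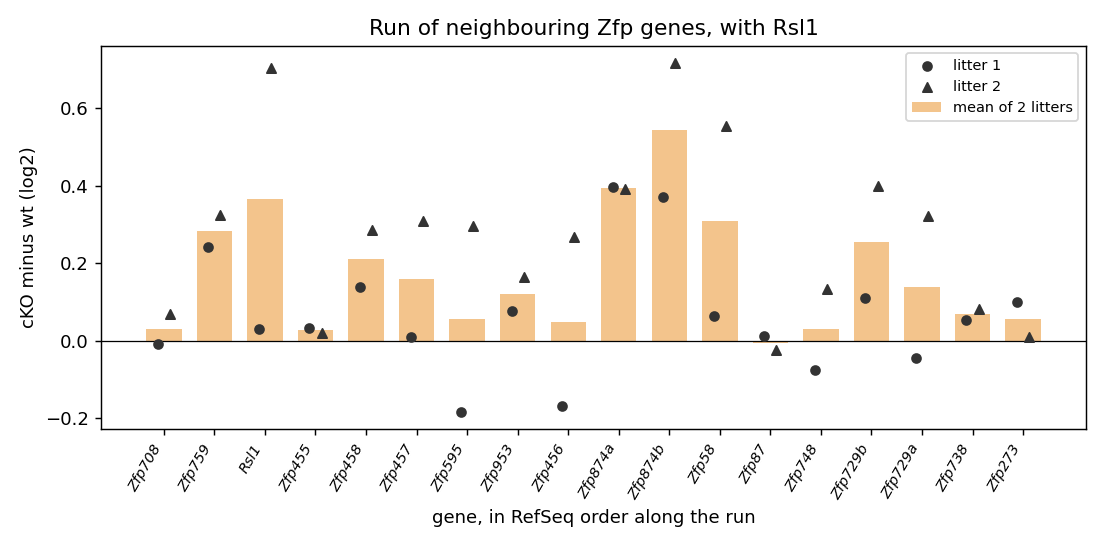
Difference cKO minus wt in log2 units (y axis) of the 17 Zfp genes of the chromosome 13 run and of Rsl1, in RefSeq order (x axis), as the mean of 2 litters (bars) and in litter 1 (circles) and litter 2 (triangles). The bars lie above 0 for all but Zfp87, and the litter 2 points are above 0.25 for many genes whose litter 1 points are near 0.

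Among the other runs, those with over 10 members were these. The run on chromosome 17 from Zfp160 to Zfp213 had 18 members, 13 higher by sign, with a median of 0.09 and with 5 above and 3 below without overlap. The run on chromosome 7 from Zfp84 to Zfp146 had 11 members, 8 lower by sign, with a median of -0.10 and with 4 below and 1 above. Of the genes outside the family 28.5% lay below and 17.2% above in this way. Outside the chromosome 13 run, the 231 remaining Zfp genes had a median of -0.00, and 50.6% were lower by sign.

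**Figure D4:**
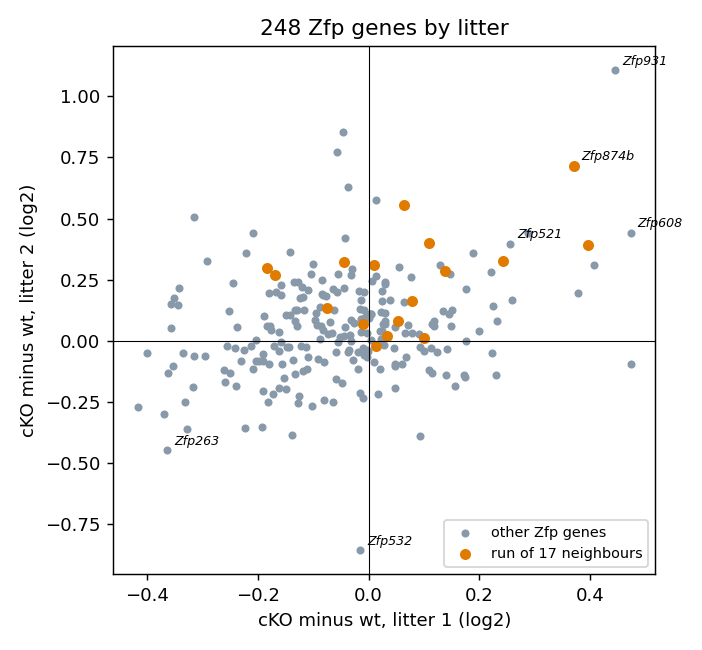
Difference cKO minus wt in log2 units of each of the 248 Zfp genes in litter 1 (x axis) and litter 2 (y axis), with the 17 genes of the chromosome 13 run in orange. The litters gave opposite signs for 111 genes, Zfp931 and Zfp874b lie far up on the right, and Zfp532 lies at -0.86 in litter 2 and -0.02 in litter 1.

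Promoters could be read for 205 of the 248 Zfp genes. The Runx core TGTGGT, on either strand, was present in 39 of them (19.0%), against 18.9% of all 27025 genes with an entry. It was in 8 of 40 genes whose cKO arrays lay below wt (20%), in 5 of 31 whose cKO arrays lay above (16.1%) and in 26 of 134 with overlap (19.4%). In the chromosome 13 run, chosen after its values were seen, the core was in 5 of 15 genes with an entry. Of the 20 ranked genes 15 had an entry, and Zfp512 and Zfp770 held the core. The word GGGAAATGTAGT, chosen for being shared in the run, was in 9 of 15 run genes with an entry, among them Zfp759, Zfp874a and Zfp874b. It was in 13 of 190 other Zfp genes (6.84%), against 0.514% of genes outside the family and 0.592% of all genes. Among Zfp genes outside the run it was in 2 of 23 that were higher without overlap and in 3 of 40 that were lower. Between Zfp874a and Zfp874b 77.6% of aligned positions were identical, the highest of 105 pairs in the run, whose median was 51.4%. Only the first entry of each gene was aligned. Promoters from outside the run were not aligned, so this median cannot be read as likeness by descent. A match is a run of letters and not a site of binding.

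Most of the corepressors that KRAB proteins work through were lower in cKO by sign. Of 25 listed genes 21 were measured, 18 were lower by sign, and in 11 both cKO arrays lay below both wt arrays, with a median difference of -0.08. These are 85.7% and 52.4% of the measured genes, against 57.8% and 28.5% of the genes outside the Zfp family, whose median was -0.03. In litter 1 the median of the list was -0.10 with 18 lower, and in litter 2 it was -0.02 with 15 lower. Of the genes outside the family 67.6% and 48.1% were lower in these litters. The list was not recounted under the other scalings. Trim28, the scaffold that binds KRAB domains, read 10.44 and 10.43 in wt and 10.30 and 10.28 in cKO, a difference of -0.15. Setdb1, which writes the repressive histone mark, read 9.86 and 9.84 in wt and 9.74 and 9.72 in cKO, a difference of -0.11. The arrays of each genotype were close to each other in both genes. Neither had an unadjusted limma p under 0.05, while in the study's one-way test they were the 2 genes of the list under it. Uhrf1, which guides maintenance methylation, was the one gene of the list at an unadjusted limma p under 0.05, at 9.68 and 9.48 in wt and 9.25 and 9.30 in cKO, a difference of -0.30 (limma adjusted p = 0.521). Hdac1 stood at -0.25, Morc2a at -0.20 and Dnmt1 at -0.19.

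Other zinc finger families were measured beside the Zfp genes. The 36 Zbtb genes had a median of -0.02, with 21 lower by sign and 0 at an unadjusted limma p under 0.05. Zbtb46, a marker of classical DC, stood at -0.28, Zbtb18 at -0.24 and Zbtb20 at 0.29. The 14 Klf and Sp genes had a median of -0.04, with Klf2 at 0.60, Klf7 at -0.32 and Klf3 at 0.21. The 13 Zc3h genes, which code for RNA-binding fingers, had a median of -0.08, with 10 lower by sign (76.9%) and 7 below without overlap (53.8%), against 57.8% and 28.5% of the genes outside the Zfp family.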

How the data were processed

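RNA from 4 mice was profiled on Affymetrix 1.0 ST arrays. The authors deposited log2 values, made by RMA with correction for GC content. Partek, RMA and the build mm9 are named, without versions, in the submitters' processing notes. RMA subtracts background and draws the arrays to one distribution, so a shift common to all genes cannot be seen. Of 35399 probe sets, 18889 reached 6.5 on at least 1 array and were tested. Array medians ran from 6.58 to 6.62 and correlations between arrays from 0.992 to 0.996; the number of arrays limits the precision.

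Genotypes were compared with limma 3.58.1 in R 4.3.3 (lmFit, eBayes) with Benjamini-Hochberg adjustment over all tested probe sets, and the scripts were tested on simulated data. The litter number in the labels pairs the mice (deviations within litters correlated at 0.27), and the litter block was an alternative. Others were scaling, the limit, probe set choice, the methods' test and leaving out each array. The named genes were the 10 per direction with the smallest unadjusted p, up to 4 per role list, up to 6 of the corepressor list, up to 3 per other family, and genes at the limit. Members, lists and tests were chosen with earlier results of these data known. Names came from the platform annotation, and 248 of 248 members matched RefSeq, 1 as not protein-coding. Promoter and neighbour order came from RefSeq, and no coordinate of the arrays' build was used. Promoters were aligned end to end to give identity. Fingers and KRAB domains were not counted in the proteins.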

Additional observations from a re-analysis of the deposited data

How the results depend on the processing

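With 2 mice a group, the 95% interval of a difference reached a median of 0.287 log2 units to either side, and the count of Zfp genes past an adjusted p of 0.05 stayed at 0 in each alternative run. Of 248 values under alternatives, 229 stayed on their side of the threshold or within their allowed range and 19 did not. The 248 include 147 values of 21 named genes, none with another sign. The genotypes of these named genes did not overlap, so leaving out an array could not turn the sign. The block leaves the estimate as it is, so only the scalings could have turned it. Of 248 Zfp genes 49 lay below without overlap, or 74 by sign in both litters (replicate block), against 39.5% of other genes. With an array left out 67 to 102 did, against 38.1% to 54.2%. Genes above numbered 38, or 63 with the replicate block (23.7% of other genes), and 60 of 344 without the limit (21.9%). With an array left out 56 to 105 lay above, against 23.2% to 40.4% of other genes. The Zfp share above, under that of other genes in the main counts, exceeded it with the block and at a limit of 7.5. The same held without each array except the cKO array of litter 2. Leaving out an array makes non-overlap easier to reach, since fewer arrays must stand apart. At an unadjusted p under 0.05 the 5 lower genes became 9 without the limit, 3 after quantile normalization and 0 to 8 with an array left out, and the 7 higher genes became 11 without the limit and 0 to 10. The study's thresholds gave 1 gene in place of 0 with limma's p, and 0 to 1 with an array left out. The median difference of the family ran from -0.03 to 0.03 with an array left out, below 0 without the wt or the cKO array of litter 2. For the chromosome 13 run, chosen after seeing the data as was Zfp366, 9 to 15 genes lay above without overlap and the median ran from 0.06 to 0.21 with an array left out, and 8 lay above with medians set equal or after quantile normalization. The cause of these changes was not tested.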

Other observations

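Between the litters some Zfp genes differed as far as between the genotypes. The median gap between the litters, from single arrays, was 0.138 in wt and 0.102 in cKO, against 0.132 and 0.080 in other genes. For 132 of 248 genes the gap had the same direction in both genotypes, near an even split. Of these 78 were higher in litter 2 and 54 higher in litter 1, and other genes were not counted in this way. The genes named next were among those with the largest gaps of shared direction. The part of the Xist and Kdm5d split in these gaps was not tested. Zfp583 read 7.36 and 7.35 in the wt and cKO arrays of litter 1 and 7.76 and 7.73 in those of litter 2, with a genotype difference of -0.02. Zfp512b read 8.68 and 8.55 in litter 1 and 8.34 and 8.21 in litter 2, with a genotype difference of -0.13. Zfp708, the first gene of the chromosome 13 run, read 6.15 and 6.14 in litter 1 and 6.56 and 6.63 in litter 2.

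Of the 248 genes, 9 had several probe sets at the limit, and in 5 of these the probe sets differed in sign. The probe sets of Zfp788 held equal values, with a difference of -0.19. The RNA-binding genes left out of the family read as follows: Zfp36 differed by -0.07, Zfp36l1 by 0.19 and Zfp36l2 by 0.17.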
